A study of Rattus norvegicus with 6 samples.

Results

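The genes described here are 10 chemokine genes that are commonly measured in the glia of the injured spinal cord: CCL2, CCL3, CCL4, CCL5, CXCL1, CXCL10, CXCL12, CXCL14, CXCL16 and CX3CL1. They were chosen by gene symbol, and all 10 were among the 17648 rows of the expression matrix. The RNA came from primary cultures labelled as neurons of the spinal cord, taken from neonatal Sprague-Dawley rats, grown for 3 days and given Ara-C, an inhibitor of dividing cells, to enrich neurons. A control small interfering RNA (siRNA) was transfected in the Glu + siR-Con group (3 libraries), and an siRNA to GAL3, the protein encoded by LGALS3, in the Glu + siR-GAL3 group (3 libraries). The study's methods and the series description give both groups glutamate as an injury model, here 10 μM for 1 h followed by 16 h without glutamate, whereas the sample labels name saline for the siR-Con libraries and call the siR-GAL3 libraries a knockout. The labels do not say whether the 3 libraries of a group came from separate cultures, and the study's methods mention independent repeats only for its data in general, so p-values measure the spread between these libraries, part of which may be technical.

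Chemokines are small secreted proteins that guide the migration of cells by binding G protein-coupled receptors, and they are classed by the spacing of their first cysteines. In the injured spinal cord, microglia and astrocytes are known sources of CC and CXC chemokines that attract monocytes, neutrophils and T cells. CXCL16 and CX3CL1 differ from the others in being made as transmembrane proteins, from which proteases release a soluble form.

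The values were on a linear scale that the authors derived from FPKM (fragments scaled by transcript length and library size), and 3.86% of all values were below 0 after their correction. Column totals lay between 64313 and 64714, so the sequencing depth is unknown and every SD is the spread left after a correction within groups. Exactly equal values divided the libraries into 3 sets: siR-Con replicate 1 with siR-GAL3 replicate 1, siR-Con replicates 2 and 3 with siR-GAL3 replicate 3, and siR-GAL3 replicate 2 alone. A fit with library set as a block therefore takes nothing for the group difference from siR-GAL3 replicate 2. LGALS3 was 77.4, 54.4 and 62.4 in the siR-Con libraries and -1.64, 32.3 and 18.5 in the siR-GAL3 libraries, with no overlap. Of the genes tested, 41.6% had their highest value in siR-GAL3 replicate 2, which stood apart from the other libraries.

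Glial transcripts were abundant in these cultures. The astrocyte filament gene GFAP was 515 to 758, the myelin gene MBP 629 to 919, and the complement gene C1QB of microglia and macrophages 27.5 to 41.6. By contrast, the neuronal nuclear protein gene RBFOX3 was 0.300 to 0.429, and the motor neuron enzyme gene CHAT and the glutamate transporter gene SLC17A6 stayed under 0.1 in every library. Other neuronal genes were higher, with the dendritic protein gene MAP2 at 13.1 to 19.0, the RNA-binding protein gene ELAVL3 at 7.81 to 11.0 and the tubulin gene TUBB3 at 4.03 to 5.19. The cultures therefore held glial RNA in large amounts beside the neurons named in the labels, and the data do not show which cells the chemokine transcripts came from. In bulk RNA, fewer cells of a type and less RNA per cell cannot be told apart.

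CXCL10, CXCL14 and CXCL16 separated the groups completely. CXCL16 was 1.62-fold higher and CXCL10 5.34-fold higher in the siR-GAL3 mean than in the siR-Con mean, and CXCL14, the most abundant of the 10, was 17.0% lower. The other 7 genes overlapped between groups. Over all 17648 rows, 9.01% had every siR-GAL3 library above every siR-Con library and 7.86% the opposite, against 2 and 1 of the 10 chemokine genes. In the limma fit without a block, no gene had an adjusted p under 0.05, so these differences are given as sizes with their intervals.

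The promoters of the genes that separated the groups are shown to place the values beside the regulatory sequence upstream of each gene. RefSeq held all 10 symbols and a promoter for 6 of them, in build GRCr8, while the build used by the authors is not given in the sources used here. Each sequence below is the 250 bases before the gene start, read on the strand of the gene. These windows lie at chr14:15988816-15989065 (CXCL10, plus strand), chr17:8322900-8323149 (CXCL14, plus strand) and chr10:55669951-55670200 (CXCL16, minus strand). Capitals mark matches to the motifs searched.
CXCL10: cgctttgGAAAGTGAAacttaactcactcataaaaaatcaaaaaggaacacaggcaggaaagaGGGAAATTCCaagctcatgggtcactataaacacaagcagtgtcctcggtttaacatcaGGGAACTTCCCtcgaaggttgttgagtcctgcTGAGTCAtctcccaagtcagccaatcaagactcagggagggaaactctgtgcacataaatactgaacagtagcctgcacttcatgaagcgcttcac
CXCL14: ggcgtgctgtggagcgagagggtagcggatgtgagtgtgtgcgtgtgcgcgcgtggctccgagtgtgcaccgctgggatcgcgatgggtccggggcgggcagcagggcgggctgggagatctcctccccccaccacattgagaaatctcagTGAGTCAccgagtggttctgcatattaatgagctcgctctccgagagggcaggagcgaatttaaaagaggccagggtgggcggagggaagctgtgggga
CXCL16: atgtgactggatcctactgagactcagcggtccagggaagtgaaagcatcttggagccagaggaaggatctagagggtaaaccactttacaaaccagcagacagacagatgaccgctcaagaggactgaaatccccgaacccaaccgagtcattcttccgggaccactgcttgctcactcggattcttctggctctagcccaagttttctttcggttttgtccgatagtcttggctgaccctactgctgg
The motifs, searched on both strands, were the core of the interferon-stimulated response element (ISRE), GAAANNGAA, the AP-1 motif TGANTCA, the STAT motif TTCNNNGAA and the κB motif. The CXCL10 sequence held the ISRE core at -243 to -235 from the gene start, κB matches at -187 to -178 and, overlapping each other, at -128 to -119 and -127 to -118, and AP-1 at -96 to -90. CXCL14 held AP-1 at -99 to -93, and CXCL16 held none of the 4 motifs in this window. Of the other genes with a promoter, CXCL1 held overlapping κB matches at -84 to -75 and -83 to -74, and CXCL12 and CX3CL1 held no match. Among all 33469 promoters of the same length, 8.12% held the ISRE core, 6.33% the κB motif, 6.34% AP-1 and 7.67% the STAT motif. A match describes letters only and does not show binding.

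The 10 genes covered a wide range of levels. Averaged over the 6 libraries, the order on the length-scaled values was CXCL14 (18.5), CXCL16 (2.95), CX3CL1 (2.22), CCL2 (1.27), CXCL10 (0.686), CXCL1 (0.518), CXCL12 (0.343), CCL4 (0.153), CCL3 (0.132) and CCL5 (0.00845). CXCL14 exceeded the mean of 97.2% of all rows, and its lowest library was above the highest library of CXCL16. Neighbours in this order also failed to overlap between CXCL12 and CCL4 and between CCL3 and CCL5, while the ranges of all other neighbours overlapped. Only CXCL14, CXCL16, CX3CL1 and CCL2 reached the mean of 1 required for the main test.

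**Figure D1:**
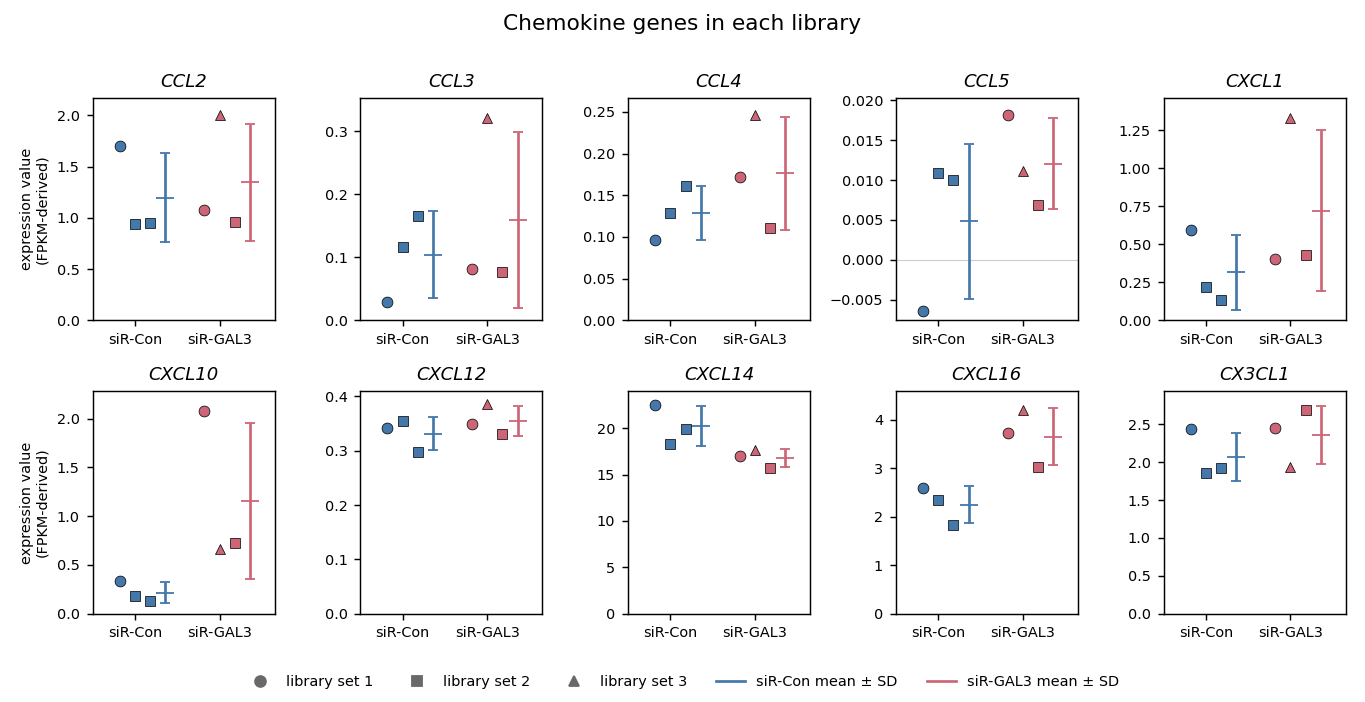
Expression value (FPKM-derived, linear axis) of each chemokine gene in the 6 libraries, with points shaped by library set and the mean and SD of each group beside them (n = 3). CXCL10 and CXCL16 were higher in every siR-GAL3 library and CXCL14 was lower in every one, whereas CCL2, CCL3, CCL4 and CXCL1 were highest in siR-GAL3 replicate 2.

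Monocytes are drawn into injured tissue mainly by CCL2, the ligand of CCR2. Its values were 1.70, 0.942 and 0.947 in the siR-Con libraries and 1.07, 2.00 and 0.957 in the siR-GAL3 libraries. One library of each group was high and the groups overlapped. The means were 1.20 ± 0.437 and 1.34 ± 0.574 (SD, n = 3), a difference of 0.08 on the log2(value + 1) scale with a 95% interval of -0.38 to 0.55. The direction rested on siR-GAL3 replicate 2, because the difference was -0.11 without that library. It was -0.16 when library set was a block, a fit in which that library likewise adds nothing to the difference.

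CCL3, CCL4 and CCL5 attract monocytes and T cells. CCL3 was 0.0292, 0.117 and 0.165 in siR-Con and 0.0814, 0.321 and 0.0761 in siR-GAL3. For CCL4 the values were 0.0967, 0.129 and 0.161 in siR-Con and 0.172, 0.247 and 0.111 in siR-GAL3. Both genes were highest in siR-GAL3 replicate 2 and overlapped between groups. CCL5 did not exceed 0.0181 in any library and was -0.00636 in siR-Con replicate 1, so no fold is given. The exact permutation tests of the group means gave p = 0.7 for CCL3, 0.4 for CCL4 and 0.4 for CCL5, where 0.1 is the smallest p that 3 against 3 libraries allow in a two-sided test.

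Neutrophils respond to CXCL1 through CXCR2. CXCL1 was 0.595, 0.221 and 0.132 in siR-Con and 0.403, 1.33 and 0.427 in siR-GAL3. The siR-Con replicate 1 value lay above the 2 lower siR-GAL3 values, so the groups overlapped although the siR-GAL3 mean was 2.28-fold higher. On the log2(value + 1) scale the difference was 0.36 with a 95% interval of -0.24 to 0.96, and it was 0.12 without siR-GAL3 replicate 2. In the first library set the siR-GAL3 value was the lower one, with a ratio of 0.677, and in the second set the ratio was 2.43.

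Of the 10 genes, 6 had their highest value in siR-GAL3 replicate 2: CCL2, CCL3, CCL4, CXCL1, CXCL12 and CXCL16. The same library was the highest for 37.9% of all rows with a single highest value. For CCL2, CCL3, CCL4 and CXCL1 the group differences were thus set mainly by this library, and what set it apart was not tested.

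Interferons induce CXCL10, a ligand of CXCR3 that attracts activated T cells. CXCL10 was 0.335, 0.183 and 0.131 in the siR-Con libraries and 2.07, 0.664 and 0.727 in the siR-GAL3 libraries. Every siR-GAL3 value was above every siR-Con value, and siR-GAL3 replicate 1 was the highest library by a wide margin. The means were 0.216 ± 0.106 and 1.15 ± 0.796 (SD, n = 3), and the exact permutation test gave p = 0.1, the smallest it can give. Because its mean was under 1, CXCL10 entered only the limma fit without a filter, where the difference was 0.77 ± 0.25 (SE) with a 95% interval of 0.14 to 1.40 and an adjusted p of 0.474. In that fit 9.2% of all genes had an unadjusted p under 0.05, against 3 of the 10 chemokine genes (CXCL10, CXCL14 and CXCL16).

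The direction of the CXCL10 difference did not rest on the highest library, but part of its size did. Without siR-GAL3 replicate 1 the difference fell from 0.77 to 0.48 and still had an unadjusted p under 0.05. The call was lost without siR-Con replicate 2 (0.75) or siR-Con replicate 3 (0.72). Within the first library set the siR-GAL3 to siR-Con ratio was 6.19, and within the second it was 4.63. On values without a log transformation CXCL10 was not called.

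The regulators that carry the interferon signal include the transcription factors STAT2 and IRF9, parts of a complex that binds the ISRE, and the receptor chains. STAT2 was 2.41, 1.73 and 1.79 in siR-Con and 4.59, 2.50 and 2.87 in siR-GAL3. IRF9 was 2.11, 1.14 and 1.33 in siR-Con and 4.10, 2.34 and 2.56 in siR-GAL3. Both were highest in siR-GAL3 replicate 1, the library highest for CXCL10, and in both the siR-Con maximum was in replicate 1, as for CXCL10. The replicate 1 libraries of both groups form the first library set, and the part of that set in this pattern was not tested. Of 7 interferon regulators tested, 4 had an unadjusted p under 0.05 and were higher in siR-GAL3 (STAT2, IRF9, IFNGR1 and IFNGR2) and none was lower, against 4.41% and 4.25% of all genes tested, with a median difference of 0.23 on the log2(value + 1) scale against 0.00 over all genes tested. In the limma fit without a block, the adjusted p was 0.519 for STAT2 and 0.419 for IRF9. When library set was a block, it was 0.0196 and 0.0114, in a fit where 1.25% of all genes tested had an adjusted p under 0.05. With each of the 6 libraries left out in turn, the unadjusted p stayed under 0.05 in 4 fits for STAT2 and in 6 for IRF9. IRF7, another factor of this pathway, was 1.18 in siR-Con replicate 1, below 0 in siR-Con replicates 2 and 3, and 1.66 to 2.83 in siR-GAL3.

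CXCL12 maintains stem cell niches and guides migrating neurons through CXCR4, and it was low and even. The values were 0.342, 0.355 and 0.297 in siR-Con and 0.348, 0.385 and 0.331 in siR-GAL3. The groups overlapped, and the difference of 0.03 on the log2(value + 1) scale had a 95% interval of -0.04 to 0.09.

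CXCL14, a chemokine made constitutively in many tissues, was the dominant transcript of the group. It was 22.5, 18.3 and 19.9 in the siR-Con libraries and 17.0, 17.7 and 15.7 in the siR-GAL3 libraries. All siR-GAL3 values lay below the lowest siR-Con value, but the gap between 18.3 and 17.7 was smaller than the spread within either group. The means were 20.2 ± 2.14 and 16.8 ± 0.980 (SD, n = 3), a limma difference of -0.25 ± 0.09 (SE) on the log2(value + 1) scale with a 95% interval of -0.47 to -0.03 and an adjusted p of 0.535. The unadjusted p was under 0.05, and so it was for 361 of the 8495 genes tested on the lower side (4.25%). That call was lost without siR-Con replicate 1 (-0.17), siR-Con replicate 3 (-0.26), siR-GAL3 replicate 1 (-0.26) or siR-GAL3 replicate 3 (-0.21), and the difference remained negative in each. Within the first library set the siR-GAL3 to siR-Con ratio was 0.756, and within the second it was 0.824.

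Some markers of astrocytes and of fibroblasts and meninges were lower in the same libraries. GFAP was 758, 638 and 571 in siR-Con and 523, 533 and 515 in siR-GAL3, and 4 of 10 astrocyte markers tested had an unadjusted p under 0.05 and were lower, with none higher, against 4.25% and 4.41% of all genes tested. SLC1A3 and GJA1, also astrocyte markers, had differences of 0.06 and 0.02 on the log2(value + 1) scale. The summed level of the 10 astrocyte markers was 937 to 1077 in siR-Con and 811 to 875 in siR-GAL3, and GFAP made up most of it. Of 6 fibroblast and meningeal markers tested, 2 were called lower (COL1A1 and COL3A1), DCN had a difference of 0.16, and the sum of the 7 listed was 49.1 to 55.4 in siR-Con and 35.6 to 44.2 in siR-GAL3. Endothelial and mural markers were low, and the sum of the 7 listed was 2.69 to 3.05 in siR-Con and 2.23 to 2.46 in siR-GAL3. Their part in the CXCL14 difference was not tested.

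CXCL16 is the transmembrane ligand of CXCR6 and also takes up oxidized lipoprotein, and macrophages are a known source. It was 2.58, 2.34 and 1.83 in the siR-Con libraries and 3.72, 4.21 and 3.03 in the siR-GAL3 libraries. The lowest siR-GAL3 value lay above the highest siR-Con value. The means were 2.25 ± 0.384 and 3.65 ± 0.594 (SD, n = 3), a limma difference of 0.52 ± 0.13 (SE) on the log2(value + 1) scale with a 95% interval of 0.22 to 0.81 and an adjusted p of 0.288. The unadjusted p was under 0.05, as for 375 of the 8495 genes tested on the higher side (4.41%). It stayed under 0.05 with each of the 6 libraries left out in turn, with differences of 0.42 to 0.62. The siR-GAL3 to siR-Con ratios within the first and the second library set were 1.44 and 1.45.

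Of the 4 chemokine genes in the main test, 2 (CXCL16 and CXCL14) had an unadjusted p under 0.05, against 8.66% of all genes tested. None of the 4 had a log2 difference over 1 in size, which 0.318% of all genes combined with such a p, and none had an adjusted p under 0.05, against 0% of all genes. When library set was fitted as a block, 13.8% of genes had an unadjusted p under 0.05 and 1.25% an adjusted p under 0.05. In that fit the difference of CXCL16 was 0.39 and that of CXCL14 -0.31, both with an adjusted p of 0.0944, and neither passed.

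**Figure D2:**
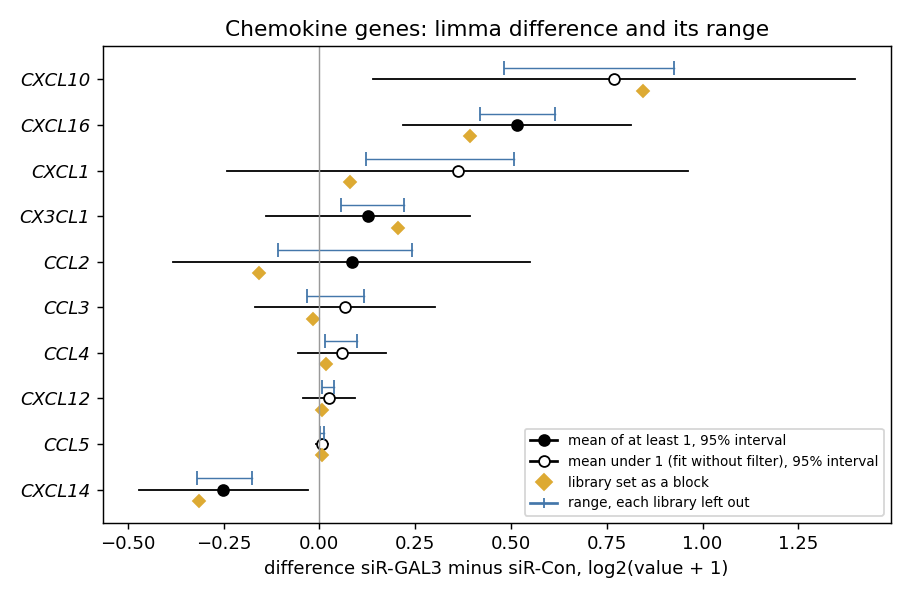
Difference between siR-GAL3 and siR-Con on the log2(value + 1) scale for each chemokine gene, with its 95% limma interval (black, filled where the mean was at least 1 and open where it came from the fit without a filter), the difference with the library set as a block (diamonds) and the range with each library left out (blue). The intervals of CXCL10, CXCL16 and CXCL14 did not include 0, and CCL2 and CCL3 changed sign between these settings. With the block, siR-GAL3 replicate 2 adds nothing to the difference.

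CX3CL1, the membrane-bound ligand of the microglial receptor CX3CR1, is made in the spinal cord mainly by neurons. It was 2.44, 1.86 and 1.92 in the siR-Con libraries and 2.45, 1.94 and 2.69 in the siR-GAL3 libraries. The groups overlapped, and the siR-GAL3 values were high in replicates 1 and 3. The difference was 0.13 on the log2(value + 1) scale with a 95% interval of -0.14 to 0.39. Without siR-GAL3 replicate 2 it was 0.22 with an unadjusted p under 0.05, and with all libraries it was not called. Within the first library set the siR-GAL3 to siR-Con ratio was 1.01, and within the second it was 1.42.

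Since CXCL14 and CXCL16 moved in opposite directions, their ratio within a library was also taken, a comparison chosen after the values were seen. CXCL14 was 8.71, 7.81 and 10.9 times CXCL16 in the siR-Con libraries and 4.57, 4.19 and 5.20 times CXCL16 in the siR-GAL3 libraries. The means of the ratio were 9.13 ± 1.57 and 4.65 ± 0.506 (SD, n = 3). No test is given, because the pair was chosen for its opposite differences.

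Receptors decide which cells answer a chemokine, and 20 of 23 receptor genes considered were listed, with 3 at a mean of at least 1. CXCR4, the signalling receptor of CXCL12, averaged 2.71 ± 0.288 and 2.69 ± 0.492 (SD, n = 3). ACKR3, which scavenges CXCL12, averaged 2.03 ± 0.268 and 2.24 ± 0.146, and both receptors overlapped between groups.

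CX3CR1, the microglial receptor of CX3CL1, was 3.22, 4.38 and 4.37 in siR-Con and 5.31, 2.75 and 4.33 in siR-GAL3. The siR-GAL3 group held both its highest and its lowest value, and the lowest was in replicate 2. CCR1, a receptor of CCL3 and CCL5, was 0.238 to 0.308 over the 6 libraries. The receptors of CXCL1, CXCL10 and CXCL16 were close to 0: no library exceeded 0.0121 for CXCR2, 0.0418 for CXCR3 or 0.00112 for CXCR6. The ligands CXCL10 and CXCL16 thus separated the groups in cultures with hardly any transcript of their receptors. CCR2, the receptor of CCL2, was not analysed here.

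Further chemokines outside the 10 were mostly near the lower end of the scale. Of 26 such genes 22 were listed, 2 reached a mean of 1, and 13 stayed under 0.1 in every library. CCL6, a rodent chemokine of macrophages, was 3.53, 3.54 and 4.05 in siR-Con and 6.49, 5.97 and 6.13 in siR-GAL3. The gap between the groups was wider than the range within either, and the limma difference was 0.61 ± 0.07 (SE) on the log2(value + 1) scale with an adjusted p of 0.0921, or 0.0173 when library set was a block. The platelet chemokine PF4, the other gene tested, was 0.890 to 1.33 in siR-Con and 0.912 to 2.03 in siR-GAL3, again highest in replicate 2. CCL9, a ligand of CCR1, was 0.424 to 0.695 in siR-Con and 0.362 to 0.853 in siR-GAL3 and overlapped. CXCL11, which like CXCL10 is induced by interferon and binds CXCR3, was 0.149, 0.0171 and -0.00690 in siR-Con and 0.434, 0.124 and 0.0964 in siR-GAL3. Its groups overlapped, and its highest library was that of CXCL10.

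**Figure D3:**
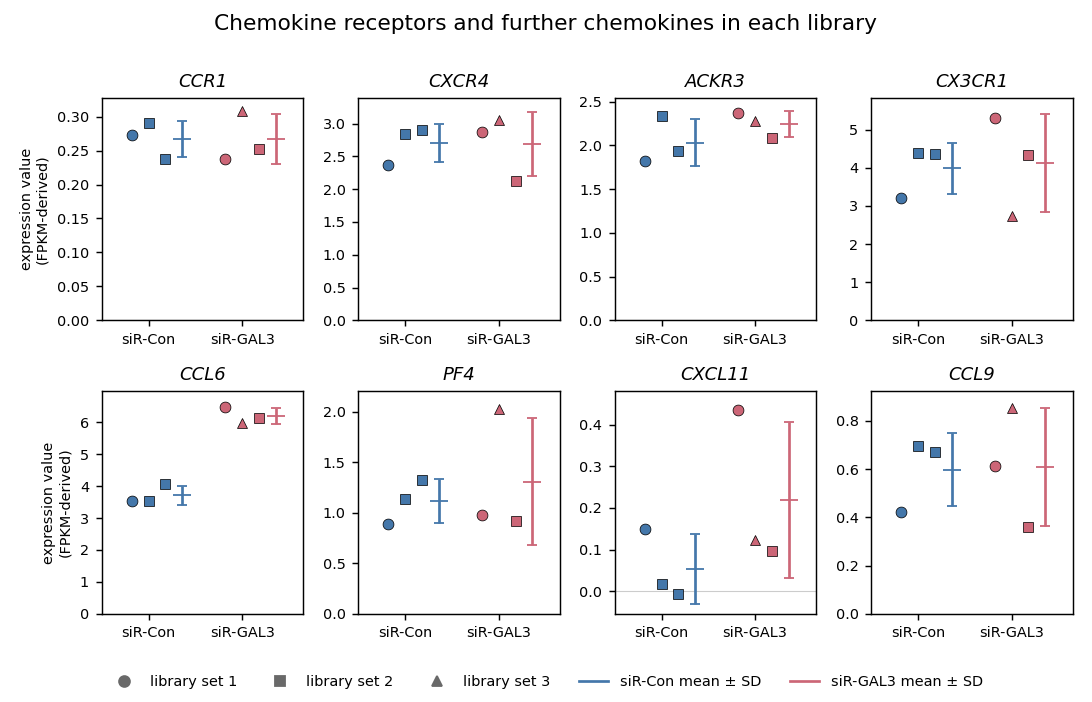
Expression value (FPKM-derived, linear axis) of chemokine receptors and of chemokines outside the 10, in the 6 libraries, with points shaped by library set and the mean and SD of each group (n = 3). CCL6 did not overlap between groups, CX3CR1 had its highest and lowest values within siR-GAL3, and CXCL11 was highest in the same library as CXCL10.

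Part of the markers of microglia and macrophages were higher in the siR-GAL3 libraries, beside CXCL16 and CCL6. Of 15 such markers tested, 7 had an unadjusted p under 0.05 and were higher and none was lower, against 4.41% and 4.25% of all genes tested, with a median difference of 0.25 on the log2(value + 1) scale. When library set was a block, 4 of the 15 (AIF1, CD68, PTPRC and FCER1G) had an adjusted p under 0.05, against 1.25% of all genes tested. The summed level of the 16 markers was 137 to 162 in siR-Con and 176 to 196 in siR-GAL3. The lysosomal protein gene CD68 was 8.84 to 9.62 in siR-Con and 13.0 to 14.2 in siR-GAL3, whereas the microglial receptor genes P2RY12 and CSF1R overlapped, at 1.30 to 1.90 and 1.42 to 1.78 for P2RY12 and at 9.81 to 12.7 and 8.94 to 15.0 for CSF1R. Their part in the differences of CXCL16 and CCL6 was not tested. Lymphocyte and neutrophil markers summed to 0.105 to 0.373 over 9 genes, and 8 of these 9 stayed under 0.1 in every library.

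**Figure D4:**
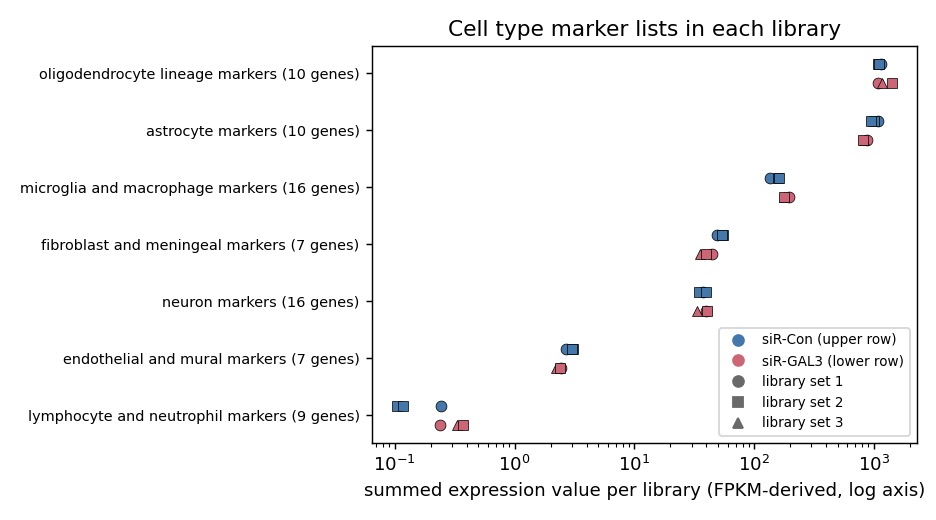
Summed expression value (FPKM-derived, log axis) of the markers of each cell type in the 6 libraries, siR-Con above and siR-GAL3 below, with points shaped by library set. The microglia and macrophage sum was higher in every siR-GAL3 library. The astrocyte, fibroblast and endothelial sums were lower in every one, while the neuron sum overlapped. Of the 16 neuron markers listed, 4 (SYT1, SYP, STMN2 and GAD1) were higher without overlap and 1 (NEFM) was lower. Over all rows the shares were 9.01% and 7.86%.

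NF-κB drives CCL2 and CXCL1 in response to cytokines. Of 15 genes of NF-κB and its inducing cytokines tested, 3 had an unadjusted p under 0.05 and were higher in siR-GAL3 (NFKBIA, NFKBIZ and IL18), 1 was lower (IL1R1), against 4.41% and 4.25% of all genes tested, and the median difference was 0.09 on the log2(value + 1) scale. NFKBIA, which encodes the inhibitor IκBα and is itself an NF-κB target, was 5.22, 4.59 and 5.02 in siR-Con and 5.89, 7.01 and 5.30 in siR-GAL3. Its highest library was siR-GAL3 replicate 2, as for CCL2 and CXCL1, but also for 41.6% of all genes tested. The unadjusted p of NFKBIA stayed under 0.05 in 1 of the 6 fits with a library left out. Its difference was 0.24 on the log2(value + 1) scale, and 0.13 when library set was a block. NFKBIZ, a nuclear cofactor of NF-κB, was 0.659 to 1.10 in siR-Con and 1.51 to 1.82 in siR-GAL3. The cytokine gene IL18 was 1.10 to 1.19 in siR-Con and 2.02 to 2.29 in siR-GAL3. Its adjusted p in the limma fit was 0.0921, or 0.0173 when library set was a block. The receptor gene IL1R1 was 1.33 to 1.52 in siR-Con and 0.918 to 1.20 in siR-GAL3. TNF, IL6 and IL1B, inducers of these chemokines, did not exceed 0.0393 in any library. IL1A, another inducer, was 0.260 to 0.378 in siR-Con and 0.401 to 0.601 in siR-GAL3 without overlap.

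Proteases shed or trim several of the 10 chemokines. ADAM10 and ADAM17, which release CXCL16 and CX3CL1 from the membrane, were 7.40 to 7.61 and 5.31 to 7.78 for ADAM10 and 3.29 to 3.52 and 3.17 to 3.81 for ADAM17, in siR-Con and siR-GAL3 respectively, and both overlapped. Of 5 proteases and their regulators tested, 2 were called lower in siR-GAL3 and none higher, against 4.25% and 4.41% of all genes tested. MMP14, which activates MMP2, was 36.5 to 39.9 in siR-Con and 26.9 to 32.7 in siR-GAL3. MMP2, which inactivates CXCL12 by cleavage, was 4.85 to 5.37 in siR-Con and 4.09 to 4.54 in siR-GAL3. TIMP3, a regulator in this list, was 5.80 to 6.03 in siR-Con and 3.43 to 5.52 in siR-GAL3. It did not overlap but was not called. Of the 8 genes listed, 3 were lower without overlap and 1 was higher, against 7.86% and 9.01% of all rows.

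For the chemokine genes with a mean of at least 1, the genes with the most similar pattern were found by Pearson's r of log2(value + 1) over the 6 libraries among 8322 genes. CXCL16 was closest to ISOC2B (r = 0.992) and to the lysosomal protease gene CTSH (r = 0.980). CXCL14 was closest to the zinc transporter gene SLC39A12 (r = 0.967) and to GGCX (r = 0.965). CCL2 followed TMEM161A (r = 0.985) and RNH1 (r = 0.983), and CX3CL1 followed STX2 (r = 0.988) and CDH13 (r = 0.987). All 6 points share their groups and library sets, and with so many candidates and 6 libraries such values are a description only.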

How the data were processed

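Expression was measured by RNA sequencing in 6 libraries. The authors aligned reads with STAR, counted them per gene with HTSeq, computed FPKM, and then applied batch removal, standardization and a correction of differences within groups. The labels state depletion of ribosomal RNA and the study's supplement selection of polyadenylated RNA. The deposited values are therefore neither counts nor plain FPKM, and depth and counting error are unknown. The planned count test did not apply.

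Values below 0 were set to 0, which touched 24 tested genes, and log2(value + 1) was fitted with limma 3.58.1 in R 4.3.3 (intensity trend, Benjamini-Hochberg adjustment) over the 8495 genes whose mean was at least 1. An unadjusted p under 0.05 was the call; the study's methods also ask for a log2 fold change over 1 in size, and its supplement for an adjusted p from DESeq, which was not run. The 6 chemokine genes with a mean under 1 were read from the fit without a filter. Because +1 was added, differences of low genes are understated. Single genes were compared by two-sided exact permutation tests in Python 3.11.15 with NumPy 2.4.6. The limma code was checked on simulated data with independent normal noise, which does not show how it behaves on values corrected before deposit. The named genes were the 10 chemokines and their receptors, LGALS3, called or most abundant genes of the lists, and the genes nearest in pattern; a few values below the call or mean limits (CXCL11, IRF7, TNF, IL6, IL1A, IL1B and overlapping markers) were added after they were seen, and not every gene the rule selects is printed; 2 genes of the lists are not reported here and were left out of the list counts. Members and lists were chosen with earlier results of these data known. Alternatives were other pseudocounts, filters and scalings, no intensity trend, no log transformation, blocks for replicate number or library set, and each library left out.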

Additional observations from a re-analysis of the deposited data

How the results depend on the processing

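Of the 4 chemokine genes tested, 2 were called. With a mean of at least 10, only CXCL14 entered the test, and it was called. With each library left out the count was 1 to 3. With the replicate block it was 1, since CXCL14 was no longer called, at the same difference of -0.25, while CXCL16 was. Same-numbered libraries did not deviate together (r = -0.17, -0.07 and 0.04), so the numbers were not taken as pairs. Over all genes, 736 calls became 1623 without a filter, 1174 with the library set block, 121 with a mean of at least 10, 543 with the replicate block and 344 to 1388 with each library left out. The 3 chemokine genes without overlap became 3 to 6 with each library left out, 6 without siR-Con replicate 1 and 5 without siR-GAL3 replicate 3, where a smaller group separates more easily. CCL2 reversed to -0.16 with the library set block and ranged from -0.11 (without siR-GAL3 replicate 2) to 0.24 with each library left out, and CCL3 reversed to -0.018 with the block and -0.031 without siR-GAL3 replicate 2, both without a filter. The library set block, like the fit without siR-GAL3 replicate 2, takes nothing for the difference from that library, so these reversals are not separate evidence. The other scalings, the pseudocount of 0.1 and the fit without an intensity trend left the count at 2. The alternative without a filter for genes with a mean under 1 was joined to each other setting after the data were seen. With 3 libraries a group, unknown depth and values corrected within groups before deposit, intervals cover only the remaining spread between libraries.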
